A study of Mus musculus with 2 samples.

Results

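The genes described here are 32 genes of glycolysis and the hypoxia response, read across the 2 libraries of a study of regulatory T cells in islet transplantation. They were chosen by name and role, as the core enzymes from glucose to lactate (17 genes), the glucose and lactate transporters (4 genes), the kinases that steer flux into or out of the pathway (3 genes, called switch kinases below) and the HIF pathway with its common targets (8 genes). All 32 were found among the 20938 genes of each table. The study examined METTL14, the partner of METTL3 in the complex that writes N6-methyladenosine (m6A) on mRNA. One library came from Treg cells of the spleen of Foxp3-Mettl14f/+ cKO mice, in which a Cre driven by the Foxp3 gene removes 1 of the 2 Mettl14 alleles in Foxp3-expressing cells. The other came from littermate controls, which the labels give as wild type. Both groups, on a C57BL/6J background, were made diabetic with streptozotocin, received islets of BALB/c donors under the kidney capsule, were given no tolerance-inducing antibodies, and were sampled on day 7 post-transplantation. Treg cells were isolated from spleen after red cell lysis with a bead kit that depletes cells other than CD4+ cells and then selects CD25+ cells. The study's methods also give Mettl14f/f for control mice without Cre, so the floxed alleles of these controls are uncertain. How many mice entered a library, and their age, are not given in the sources used here. The label of the cKO library names its genotype as a Foxp3 knockdown, which differs from the protocol.

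Glycolysis turns glucose into pyruvate in the cytosol, and in activated lymphocytes much of the pyruvate is reduced to lactate and exported. The transcription factor HIF-1, whose HIF-1α subunit is hydroxylated by prolyl hydroxylases and then degraded when oxygen is present, is known to drive most genes of this pathway. Regulatory T cells are known to lean less on glycolysis than effector T cells do, although their proliferation and migration use it.

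There was 1 library per genotype, so no difference below has a replicate check, and none was tested between genotypes. The intervals are exact 95% intervals for the ratio of 2 read counts, and they cover counting error only. Levels are normalised reads, that is reads divided by 1 size factor per library. The log2 fold change compares cKO with control after 1 is added to each level, and a gene was called higher or lower at 1.5-fold.

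The control library held 20239325 reads and the cKO library 18327535. Mettl14 had 948 and 652 reads (log2 fold change −0.31, interval −0.45 to −0.16), and Foxp3 had 1547 and 1361 (0.05, −0.06 to 0.15). With the T cell core genes equalised between the libraries, a scaling explained below, Mettl14 was at −0.08 and Foxp3 at 0.28. How far Mettl14 was lower in cKO thus depends on the scaling. Markers of cells that the bead kit should deplete were present and differed between the libraries. All 11 B cell markers compared and all 12 macrophage markers were called higher in cKO, with summed levels of 8341 and 46644 for B cells and 26218 and 56015 for macrophages (control and cKO). The granulocyte markers were abundant in both, at 255368 and 352499, and went both ways, with 3 of 13 higher (Csf3r among them) and 3 lower (Ctsg, Prtn3 and Mpo). Of the 13 erythroid markers 8 were called lower and 1 higher, the globin gene Hbb-bs, with 3 and 2626 reads. Of the 12 proliferation genes 10 were lower, and 2 when the T cell core genes were equalised between the libraries. The 17 T cell core genes had summed levels of 80181 and 65516, below those of the granulocyte markers in both libraries. Their median log2 fold change was −0.23, with none higher and 2 lower. The 12 Treg markers had summed levels of 10645 and 11922. Their median was 0.20, with 2 higher (Lrrc32 and Il2ra) and 1 lower (Tnfrsf4). No marker in these lists was at 0 in either library. The parts that other cells and dividing cells played in the member values were not tested, and fewer cells of a type cannot be told apart from less RNA per cell. The member values are also given with the T cell core genes equalised between libraries, a scaling that raises each log2 fold change by 0.23.

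HIF-1 binds DNA at a short core, and the letters ACGTG and GCGTG were searched on both strands, overlapping matches counted, in the 250 bases before the RefSeq start of each gene (the 5′-most start, build GRCm38.p6). Of the 31 members with a RefSeq window, 25 held at least 1 match (80.6%), against 50.2% of the 13187 matched genes that were compared and 38.6% of 27025 genes in all. At least 2 matches stood in 16 (51.6%), against 23.7% of the genes compared. The member windows were also richer in G and C, with a median of 62.8% against 58%. The windows of 12 of 17 core enzymes, 3 of 3 transporters, 3 of 3 switch kinases and 7 of 8 HIF pathway members held a match. A match is a description of the letters and not a binding site. The members were chosen in part as common HIF targets, so their share of matches is not independent of that choice. The 25 members with a match had a median log2 fold change of −0.09 and the 6 without one −0.26.

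Shown here are the windows of both lactate transporters, whose ratio differed between the libraries, of Pfkm, the member with the lowest log2 fold change, and of Ldha and Bnip3, which held the most matches. Capitals mark the searched letters on either strand. Windows with more than 30 bases of annotated exon, among them those of Tpi1, Aldoc and Pfkfb4, are not shown.
Slc16a1, chr3:104638414-104638663, plus strand: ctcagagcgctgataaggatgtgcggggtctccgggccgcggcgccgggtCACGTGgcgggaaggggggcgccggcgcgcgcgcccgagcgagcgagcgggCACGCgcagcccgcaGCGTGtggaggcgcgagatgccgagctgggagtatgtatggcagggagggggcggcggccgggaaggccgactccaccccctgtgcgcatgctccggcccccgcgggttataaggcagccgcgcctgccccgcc
Slc16a3, chr11:120948817-120949066, plus strand: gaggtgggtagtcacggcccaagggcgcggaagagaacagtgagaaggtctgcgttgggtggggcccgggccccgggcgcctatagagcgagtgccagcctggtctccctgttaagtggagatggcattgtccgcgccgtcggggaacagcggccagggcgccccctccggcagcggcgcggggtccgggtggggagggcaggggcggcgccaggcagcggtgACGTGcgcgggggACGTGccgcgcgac
Pfkm, chr15:98092339-98092588, plus strand: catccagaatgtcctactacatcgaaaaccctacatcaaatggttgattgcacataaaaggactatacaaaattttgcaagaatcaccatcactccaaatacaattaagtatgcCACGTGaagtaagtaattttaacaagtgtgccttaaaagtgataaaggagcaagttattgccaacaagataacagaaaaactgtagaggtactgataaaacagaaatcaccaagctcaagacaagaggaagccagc
Ldha, chr7:46845554-46845803, plus strand: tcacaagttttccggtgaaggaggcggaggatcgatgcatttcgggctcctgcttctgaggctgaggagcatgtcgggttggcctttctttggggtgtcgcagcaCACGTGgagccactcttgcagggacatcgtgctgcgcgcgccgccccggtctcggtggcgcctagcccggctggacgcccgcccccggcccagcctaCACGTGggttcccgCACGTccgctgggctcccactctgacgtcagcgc
Bnip3, chr7:138909507-138909756, minus strand: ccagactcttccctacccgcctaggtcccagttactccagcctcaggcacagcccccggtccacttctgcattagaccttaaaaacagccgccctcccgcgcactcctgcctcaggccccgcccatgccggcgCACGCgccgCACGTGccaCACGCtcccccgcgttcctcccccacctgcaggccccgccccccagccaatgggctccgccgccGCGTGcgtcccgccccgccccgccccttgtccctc
The run CACGTG, which holds the letters on both strands, stood in the windows of Slc16a1, Pfkm, Ldha and Bnip3, and Slc16a3 held 2 separate matches within 27 bases of its start.

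The members covered a wide range of levels, and enzymes of the pathway led the order. Per kilobase of transcript, the control library held 5491 normalised reads of Gapdh, 5065 of Aldoa, 4448 of Pkm, 4116 of Eno1 and 3878 of Ldha. These were the 5 most abundant members in both libraries. Pkm encodes the muscle-type pyruvate kinase, which makes pyruvate, and Ldha the lactate dehydrogenase subunit that favours lactate. Within the group called HIF pathway Ddit4, an inhibitor of mTORC1, was the most abundant at 769 and 1093 per kilobase in control and cKO. The lowest of all members were Bnip3, a mitophagy receptor, at 68.9 and 68.0, and Aldoc, the brain-type aldolase, at 9.03 and 20.8. The transcript behind each length was set after the lengths and levels had been seen, and with the union of all exons Gapdh ranked 4 and Pkm 1.

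**Figure D1:**
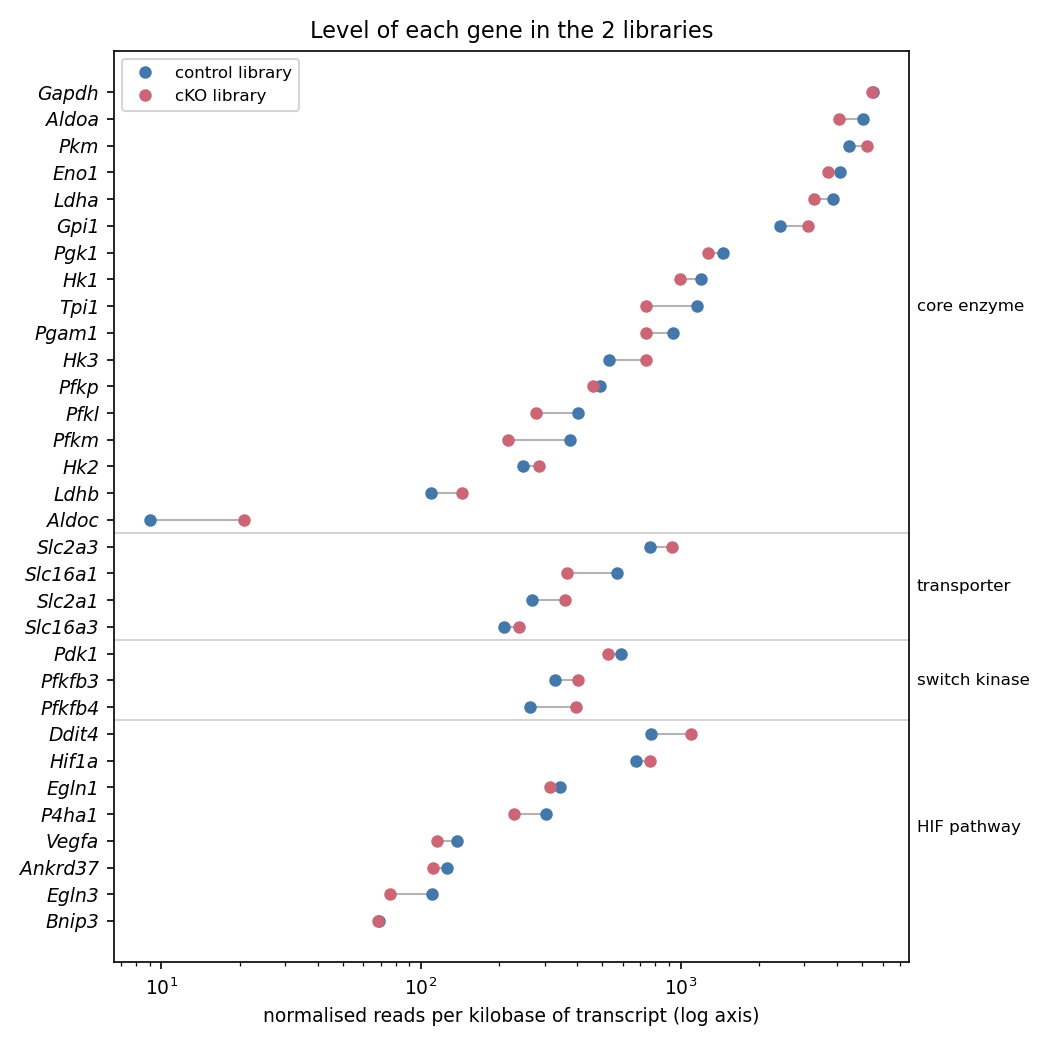
Normalised reads per kilobase of transcript (log axis) of the 32 members in the control and the cKO library, 1 point per library. Gapdh, Aldoa, Pkm, Eno1 and Ldha lead in both libraries and Aldoc is lowest, at 9.03 and 20.8.

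Most members lay close together in the 2 libraries. By the 1.5-fold rule 2 members were higher in cKO (Aldoc and Pfkfb4), 3 were lower (Pfkm, Tpi1 and Slc16a1) and 27 lay under 1.5-fold. Of the 16659 genes compared, 17.2% were called higher and 24.2% lower, and the members' shares were 6.25% and 9.38%. The called share depends on depth. All members had a mean level of 10 or more, where 15.4% of genes were higher and 14.9% lower. In the 31 members whose mean reached 100, 1 was higher and 3 were lower, and in all genes of that depth 11.9% and 8.71%. At that depth the members' lower share was near that of all genes. An exact binomial test on the reads of the 2 libraries, joined to the 1.5-fold rule, called the same counts of 2 and 3 members, and 14.8% and 17.6% of 14863 genes. With edgeR and an assumed coefficient of variation of 0.2 no member was called, against 6.26% and 10% of genes. For 22 members the whole interval lay within 1.5-fold both ways. The median log2 fold change was −0.11 over the members and −0.04 over all genes compared, and with the T cell core genes equalised these became 0.12 and 0.19.

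The scaling decided which members passed the threshold. With the T cell core genes equalised, 7 members were higher (Hk3, Gpi1, Aldoc, Ldhb, Slc2a1, Pfkfb4 and Ddit4) and none was lower. Under that scaling 4140 of all 16659 genes compared were higher and 3356 were lower. Over the 4 scalings tried (the deposited one, TMM, total reads and T cell core genes), 13 members stayed above 0, 11 stayed below 0 and 8 differed in sign (Pfkp, Gapdh, Pgk1, Eno1, Pdk1, Egln1, Bnip3 and Ankrd37). Against the deposited scale, TMM shifts each log2 fold change by −0.02, total reads by −0.09 and T cell core scaling by 0.23. Any gene further from 0 than these shifts keeps its sign. Relative to all genes, the medians were −0.12 for the core enzymes, 0.27 for the transporters, 0.34 for the switch kinases and −0.11 for the HIF pathway members on the deposited scale.

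**Figure D2:**
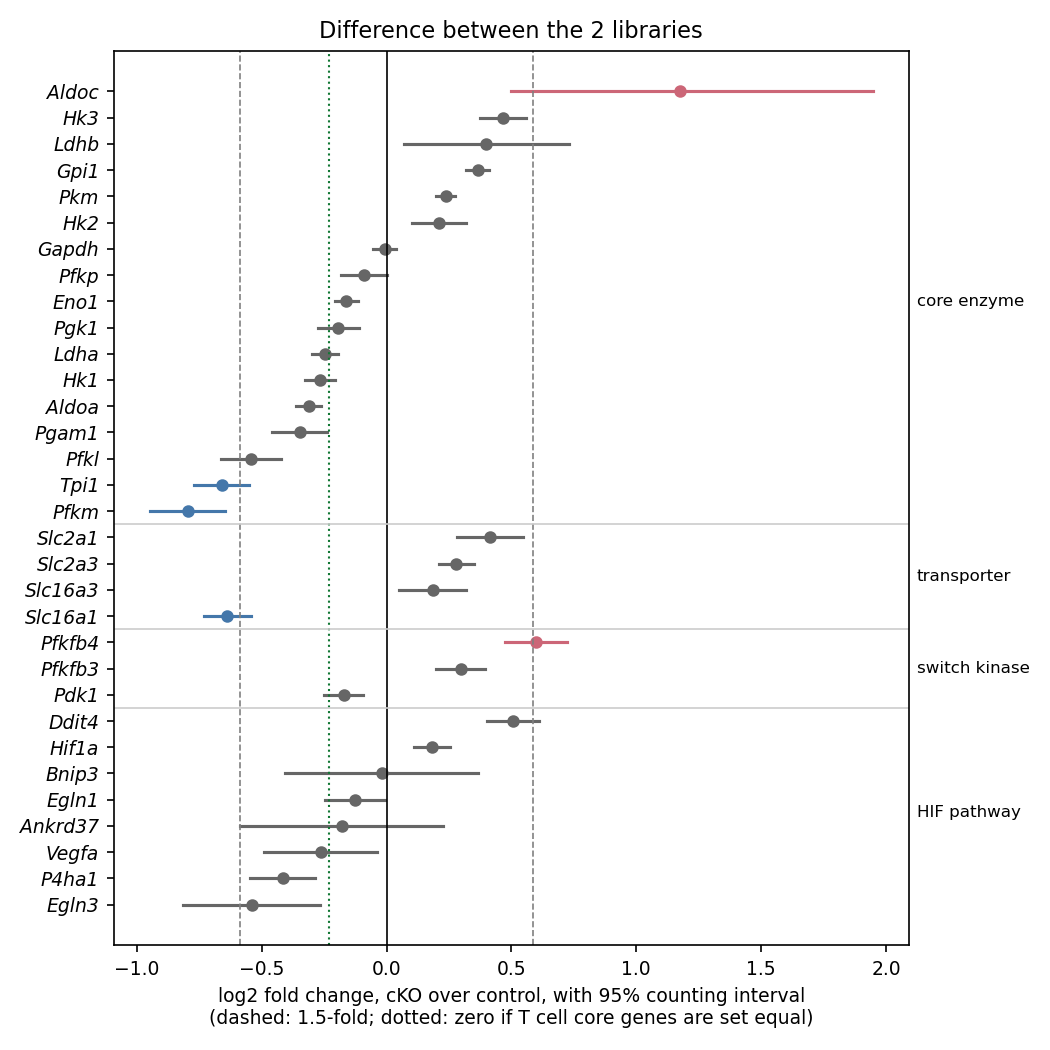
Log2 fold change of each member, cKO over control, on the deposited scale, with exact 95% intervals for counting error and 1 library per genotype; dashed lines mark 1.5-fold and the dotted line marks where 0 would lie after T cell core scaling. Aldoc (1.17) and Pfkfb4 (0.60) lie past 1.5-fold above 0, and Pfkm (−0.80), Tpi1 (−0.66) and Slc16a1 (−0.64) past it below 0; with the T cell core genes equalised the 3 lower members are no longer past it.

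The upper part of the pathway traps glucose and splits it. Hexokinase phosphorylates glucose on entry, and its 3 genes did not move alike. Hk1, the housekeeping form, had 5302 reads in control and 3750 in cKO (log2 fold change −0.27). Hk2, the inducible form bound to mitochondria, had 1410 and 1386 (0.21), and Hk3, the form known from myeloid cells, had 1764 and 2075 (0.47). Hk3 overlaps Unc5a by 34 exon bases on the opposite strand, and the 2 genes summed gave 0.35. The summed hexokinase level per kilobase differed by only 0.03. Gpi1, the isomerase of the next step, had 7185 and 7869 reads (0.36).

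Phosphofructokinase commits sugar to glycolysis, and the muscle form was the lowest of all members in cKO relative to control. Pfkm, on chr15:98092589-98132451 (whole gene, GENCODE annotation of GRCm38, the build also called mm10, as for the other genes placed here), had 1115 and 546 reads, a log2 fold change of −0.80 (−0.95 to −0.65). It overlaps Senp1 by 18 exon bases on the opposite strand, whether the counting used strand is not given, and the 2 genes summed gave −0.18. Senp1 alone had 2392 and 2090 reads (0.04), more than Pfkm, so that sum mostly carries Senp1. The liver form Pfkl had 1556 and 909 reads (−0.54), just under the threshold. The platelet form Pfkp had 2092 and 1672 (−0.09, −0.18 to 0.00). Pfkp shares 748 exon bases with Pitrm1 on the opposite strand, and summed with it gave −0.45, so its own value is uncertain.

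Aldolase cuts the phosphorylated sugar into a pair of triose phosphates, which Tpi1 interconverts. Aldoa, the main form, had 8110 and 5559 reads (−0.31). Aldoc, on chr11:78322968-78327781, had 26 and 51 reads, a log2 fold change of 1.17 (0.50 to 1.95) resting on few reads. Tpi1, on chr6:124810586-124814296, had 1927 and 1038 reads (−0.66, −0.77 to −0.55), and summed with Spsb2, which overlaps it by 34 exon bases, −0.64.

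The lower part yields ATP and ends in lactate, and none of its members was past 1.5-fold. Gapdh, the dehydrogenase often used as a reference gene, had 8060 and 6820 reads, a log2 fold change of −0.01 (−0.05 to 0.04). Pgk1 and Pgam1, the kinase and mutase that follow, had 2752 and 2049 reads (−0.19) and 1711 and 1144 reads (−0.35). Eno1 had 8625 and 6565 reads (−0.16). Eno1 has a copy, Eno1b, with 1880 and 1303 reads, between which reads may be split, and their sum gave −0.18. Pkm had 11182 and 11219 reads (0.24), Ldha 7275 and 5214 (−0.25), and Ldhb, the subunit that favours pyruvate, 147 and 165 (0.40, 0.07 to 0.73).

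Summed per kilobase by step, 8 of the 11 steps from hexokinase to lactate dehydrogenase lay below 0 and 3 above, and 1, that of Tpi1, was past 1.5-fold. With the T cell core genes equalised 4 lay below 0 and 7 above. Of the 16659 genes compared, 8875 lay below 0 on the deposited scale. The most abundant step exceeded the least by 5.89-fold in the control library and 7.45-fold in cKO.

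Ratios between isoenzymes of 1 library do not depend on its size factor. Of 12 pairs within families, 11 had an interval of the change that left out 0, and 5 changed by over 1.5-fold. Pairs of other genes were not compared, so whether these counts are particular to these families was not tested. Hk3 over Hk1 was 0.333 in control and 0.553 in cKO, a log2 change of 0.73 (0.62 to 0.84). With Unc5a, which overlaps Hk3, summed into it, that change was 0.62. Hk3 made up 20.8% of hexokinase reads in control and 28.8% in cKO. Macrophage markers had summed levels of 26218 and 56015, all 12 called higher. Granulocyte markers had summed levels of 255368 and 352499, with 3 of 13 higher and 3 lower. The part of either in the ratio of Hk3 to Hk1 was not tested. Pfkp over Pfkm changed by 0.71 (0.53 to 0.88) as counted and by −0.27 with the overlapping genes summed into both. That sum takes in all 2392 and 2090 reads of Senp1, which overlaps Pfkm by 18 exon bases. It therefore cannot decide the direction, which stays uncertain. Of the 6 pairs with an overlapping gene, Pfkp over Pfkm was the one called pair that turned. Pfkm over Pfkl, under 1.5-fold as counted, also changed sign, from −0.25 to 0.36. With those genes summed, 4 pairs in all were past 1.5-fold. Aldoc over Aldoa was higher in cKO by a log2 of 1.52 (0.81 to 2.26), although Aldoc made up only 0.320% and 0.909% of aldolase reads. Ldhb over Ldha was higher in cKO by a log2 of 0.65 (0.31 to 0.98), from 1.98% to 3.07% of the reads of both. For the glucose transporters, Slc2a3 over Slc2a1, the change was −0.13, with an interval (−0.28 to 0.01) that held 0.

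**Figure D3:**
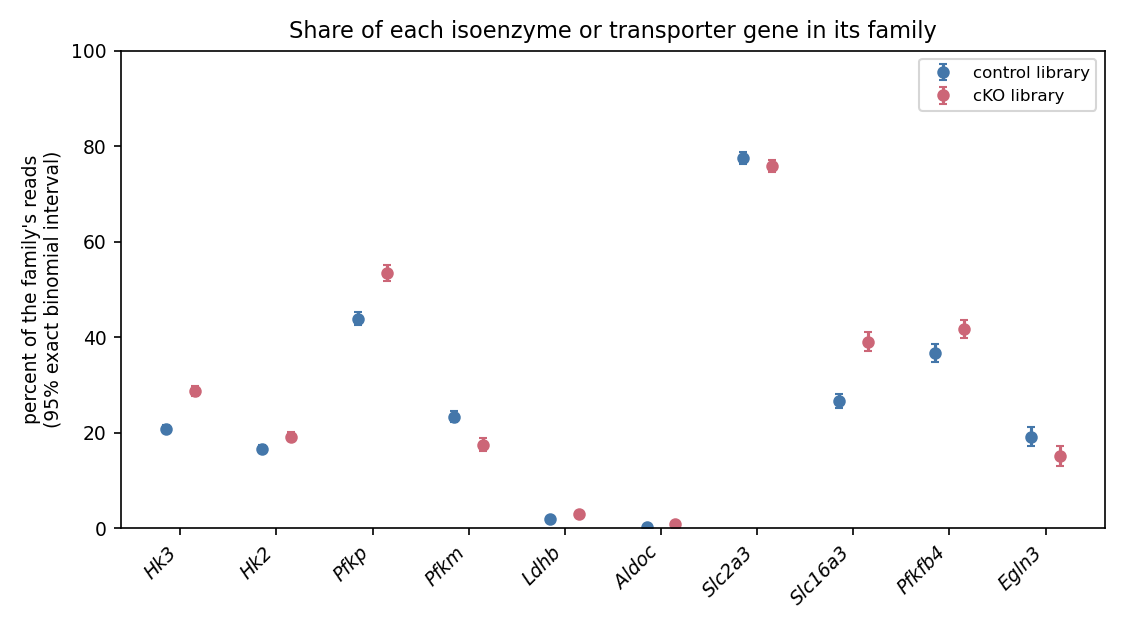
Percent of its family's reads held by each of 10 isoenzyme or transporter genes in the control and the cKO library, with exact 95% binomial intervals for counting error. Hk3 goes from 20.8% to 28.8%, Pfkp from 43.9% to 53.5% (as counted; the ratio to Pfkm turned with overlapping genes summed) and Slc16a3 from 26.6% to 39.0%, and Slc2a3 from 77.6% to 75.9%.

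The transporters carry glucose in and lactate out. Slc2a1 (GLUT1), the glucose carrier induced on T cell activation, had 905 and 1026 reads (0.41, 0.28 to 0.54), and Slc2a3 (GLUT3), the high-affinity carrier, had 3131 and 3234 (0.28). Slc16a1 (MCT1), a carrier of lactate and pyruvate, on chr3:104638668-104658462, had 2593 and 1418 reads (−0.64, −0.73 to −0.54), while Slc16a3 (MCT4), the exporter of strongly glycolytic cells and a known HIF target, had 939 and 908 (0.18, 0.05 to 0.32). Both glucose carriers and Slc16a3 lay above 0, and Slc16a1 below it, under all 4 scalings. The ratio of Slc16a3 to Slc16a1 was 0.362 in control and 0.640 in cKO, a log2 change of 0.82 (0.66 to 0.99). Bsg, the chaperone that both need to reach the membrane, had 4689 and 2350 reads (−0.76, and −0.53 with T cell core scaling, where it was not called). Of the 11 other sugar and monocarboxylate carriers and partners compared, 3 were higher (Slc16a7, Slc2a9 and Slc2a6) and 5 were lower. Slc16a6 at −0.85 and Bsg were among the lower. With T cell core scaling 4 of the 11 were higher and 2 lower. Of all genes compared, 17.2% were higher and 24.2% lower on the deposited scale.

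The switch kinases set how much sugar enters and where pyruvate goes. Pfkfb3 and Pfkfb4 make and remove fructose 2,6-bisphosphate, the activator of phosphofructokinase. Pfkfb3 had 1626 and 1699 reads (0.30), and Pfkfb4, on chr9:108991778-109032228, had 945 and 1217 (0.60, 0.47 to 0.72), just past the threshold. It was not called under TMM (0.57) or total reads scaling (0.51). Pdk1, which keeps pyruvate out of the mitochondria by inhibiting pyruvate dehydrogenase, had 3165 and 2391 (−0.17).

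None of the 8 HIF pathway members was past 1.5-fold on the deposited scale, and they went both ways. Of all genes with a mean of at least 100, 11.9% were higher and 8.71% lower, so few calls among 8 genes say little. Hif1a itself had 3285 and 3172 reads (0.18, 0.11 to 0.25). Of the prolyl hydroxylases that mark HIF-1α for degradation, both also HIF targets, Egln1 had 1276 and 995 reads (−0.13) and Egln3 304 and 178 (−0.54, −0.81 to −0.27). Ddit4 had 1395 and 1687 reads (0.51, 0.40 to 0.61), and it was called higher with the T cell core genes equalised. P4ha1, a collagen prolyl hydroxylase subunit, had 1269 and 809 reads (−0.42), and Vegfa, the vascular growth factor, 395 and 280 (−0.26). Bnip3, at 125 and 105 reads, and Ankrd37, at 121 and 91, had intervals that held 0 (−0.41 to 0.37 and −0.59 to 0.23). Ankrd37 shares exon bases with Lrp2bp and Ufsp2, and summed with them gave 0.02.

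Of 21 other glycolysis genes compared, 6 were higher (28.6%) and 5 lower (23.8%), with a median of −0.02. Of all genes compared, 17.2% were higher and 24.2% lower. Pfkfb1 (19 and 85 reads), Gapdhs (28 and 63) and Pgam2 (108 and 175) were among the higher. Pklr, the pyruvate kinase of liver and red cells, was among the lower, at 2429 and 980 reads (−1.08), beside erythroid markers of which 8 of 13 were lower and 1, Hbb-bs, was higher (summed level 47777 and 27575), whose part was not tested.

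On the deposited scale 17.2% of all genes compared were higher and 24.2% lower. Of 46 other HIF targets compared, 9 were higher and 10 lower, with a median of 0.04. With T cell core scaling 15 were higher and 9 lower, with a median of 0.27. That scaling called 4140 of all 16659 genes higher and 3356 lower, with a median of 0.19. Hmox1, which degrades haem and is abundant in splenic macrophages, had 394 and 1499 reads (2.16), beside macrophage markers that were all called higher and whose part was not tested, and the phosphatase gene Dusp1 1588 and 5320 (1.98). Plod2 had 49 and 9 reads, and Ak4 49 and 14. Car9 had 0 and 21 reads and Vldlr 40 and 0, for which no fold is given. Of the 16 genes of the HIF machinery none was higher and 2 were lower, Eloc (770 and 349 reads, −0.91), a subunit of the ligase that degrades HIF-1α, and Epas1 (335 and 169 reads, −0.75), which encodes HIF-2α. With the T cell core genes equalised, 4 of these 16 were higher and 1 lower.

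**Figure D4:**
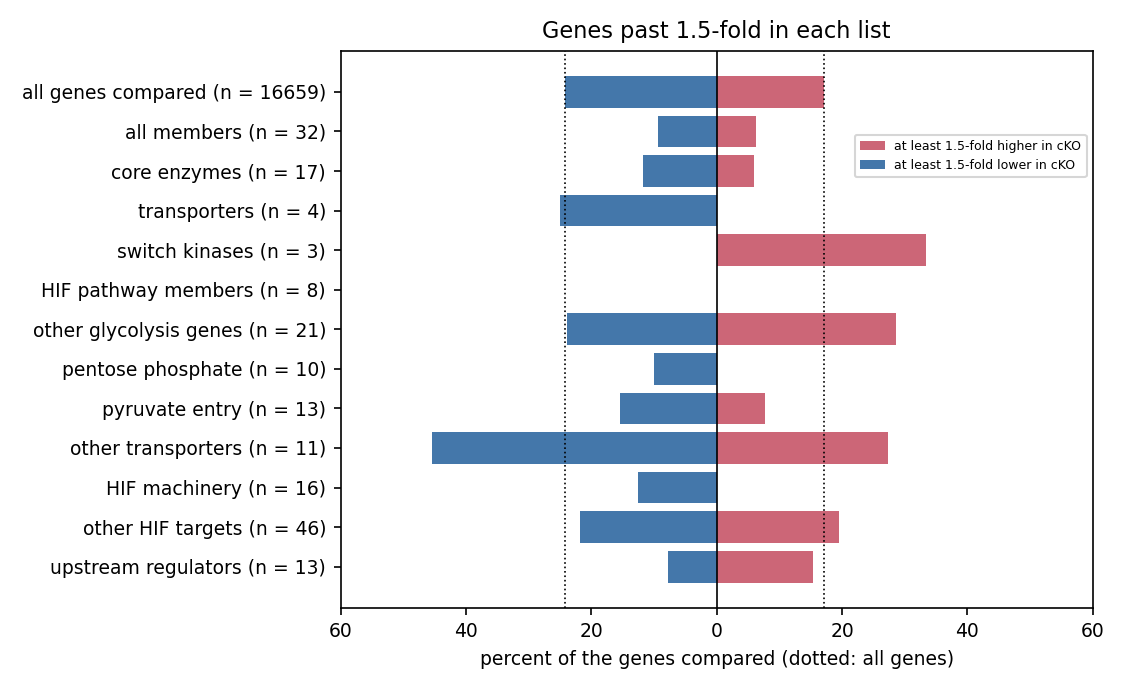
Percent of the genes compared in each list that were at least 1.5-fold higher (right) or lower (left) in cKO on the deposited scale; dotted lines mark all 16659 genes. The members as a whole lie inside both lines, 17.2% and 24.2%, but these lines take in genes of lower level than the members. Of all genes with a mean of at least 100, 11.9% were higher and 8.71% lower. Of the 31 members at that depth, 1 was higher and 3 were lower. Lists of few genes (3 switch kinases, 4 transporters) rest on 1 gene each.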

How the data were processed

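The mRNA of cells isolated as Treg cells was sequenced, in 1 control and 1 cKO library. The protocol names TopHat on mm10, and the submitters' processing notes name bcl2fastq 2.0, STAR, StringTie and DESeq2 with no role; whether counting used strand is not given in the sources used here. The deposited signal values are reads divided by 1 size factor per library: every value was a whole multiple (tolerance 0.01) of the smallest value above 0, 0.967 in control and 1.14 in cKO, so whole reads were recovered for 100% of values.

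Levels were compared as log2((cKO + 1)/(control + 1)) over 16659 genes with a mean of at least 1, at 1.5-fold. Intervals are exact (Clopper-Pearson, scipy 1.17.1). As alternatives, an exact binomial test on the reads and edgeR 4.0.16 with an assumed coefficient of variation of 0.2 (adjusted p threshold 0.1) were run; both compare 2 libraries, not genotypes. The scripts were tested on simulated data.

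The named genes are all 32 members, up to 3 of the largest called changes each way in every other list (mean of at least 10), the first genes of each marker list, Mettl14, Foxp3, and copies and overlapping genes. Members, lists and rules were chosen with earlier results of these data known. Lengths are those of the longest complete protein-coding transcript; promoter windows are from RefSeq. Some genes that this rule selects are not reported here.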

Additional observations from a re-analysis of the deposited data

How the results depend on the processing

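No paired analysis was possible because there was a single library of either genotype, and for the same reason no library could be left out. On the deposited scale 2 members were at least 1.5-fold higher and 3 lower (all genes 2864 and 4028). Equalising the T cell core genes gave 7 and 0 members (all genes 4140 and 3356). The medians became 0.12 for the members, 0.071 for the core enzymes, 0.46 for the transporters, 0.53 for the switch kinases and 0.079 for the HIF pathway members. TMM scaling left 1 member higher (Aldoc, without Pfkfb4), and total reads scaling 1 higher (Aldoc) and 5 lower. A fold of 2 left 1 member higher and 0 lower (1722 genes higher). edgeR with the assumed coefficient of 0.2 called 0 members either way, and 931 genes higher and 1488 lower. The binomial test called 2617 genes lower. A mean of at least 10 left 2035 genes lower, genes above 0 in both libraries 1904, and a mean of at least 100, chosen after seeing the data, 1 member and 1275 genes higher and 931 genes lower; these settings compare fewer genes. The share of called genes that were higher was 41.6%, and 55.2% with T cell core genes equalised, 53.4% above 0 in both and 57.8% at a mean of 100. No called member changed sign. Single log2 fold changes moved beyond their counting interval for 27 of 32 members under T cell core scaling, 11 of 32 under total reads and 3 of 8 when summed with copies or overlapping genes; other settings moved none. Isoenzyme ratios had no alternative with named copies, since no family gene has one. With overlapping genes summed, an alternative chosen after seeing the data, Pfkp over Pfkm turned to −0.27. Of the other 5 ratios with an overlap, 3 moved beyond their interval. Among these 3, Pfkm over Pfkl also changed sign, from −0.25 to 0.36. Depth limits Aldoc most, with 26 and 51 reads.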

Other observations

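The pathways beside glycolysis were compared in the same way, on the deposited scale and with 1 library per genotype. On that scale 17.2% of all genes compared were higher and 24.2% lower. Of 10 genes of the pentose phosphate pathway, which makes NADPH and ribose from glucose 6-phosphate, none was higher and 1 was lower, Rpia, at 1765 and 839 reads in control and cKO (log2 fold change −0.84). Of 13 genes that bring pyruvate into the mitochondria, 1 was higher and 2 were lower, namely Pcx (194 and 71 reads, −1.21), which makes oxaloacetate from pyruvate, and Pdhx (533 and 266, −0.77), a component of the pyruvate dehydrogenase complex. Their median was −0.28, and −0.05 with the T cell core genes equalised.

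Of 13 upstream regulators of glucose use, 2 were higher (15.4%) and 1 was lower (7.69%), against 17.2% and 24.2% of all genes compared. Mlxip, a glucose-sensing transcription factor, had 3600 and 6241 reads (1.03), and Txnip, a known target of it that restrains glucose uptake, had 13441 and 19021 (0.73). Slc3a2, the heavy chain of amino acid carriers, had 3171 and 1781 reads (−0.60), and it was under 1.5-fold with the T cell core genes equalised.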
